A study of Mus musculus with 8 samples.

Results

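The 39 genes described here make up the core of the NF-κB pathway and the inflammatory cytokines, receptors and acute-phase genes that stand around it, chosen by symbol out of 24346 genes listed in each of 8 RNA sequencing libraries of mouse colonic mesenchymal cells. All 39 symbols were found. They comprise 5 NF-κB subunits, 5 members of the inhibitor of κB (IκB) family, 6 feedback inhibitors and adaptors, 4 upstream receptors, 3 upstream ligands, 6 genes of the interleukin-6 family and its signalling, 4 haematopoietic and epithelial-type cytokines, 2 adhesion molecules and 4 further target genes.

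Every library came from large intestine cells sorted as negative for CD45, EpCAM, CD31 and Ly6C, positive for gp38 (podoplanin) and high for PDGFRα. Cells of C57BL/6 mice given 1 mM GABA with 20 mM taurine contributed 3 libraries at 6 h and 3 at 0 h. They are called the GABA-taurine libraries below, and both times carry the same treatment label, so no library stands for 6 h without the amino acids. Untreated cells contributed 1 conditional knockout library (Foxl1cre; Cxcl12 flox/flox) and 1 control library (Cxcl12 flox/flox), called the genotype libraries. Both genotype libraries carry the floxed Cxcl12 alleles, and in the knockout the deletion is limited to cells in which Foxl1 regulatory sequence has driven Cre. The sources used here do not give the age of the mice, the number pooled per library or the floxed exons of Cxcl12. Nothing in the labels says that the 3 replicates of a time came from separate mice or cultures, so p-values measure only how far these libraries scatter, and that scatter may be technical.

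NF-κB is a family of dimeric transcription factors held in the cytoplasm by IκB proteins. Signals from tumour necrosis factor and interleukin-1 receptors lead to the phosphorylation and destruction of the inhibitors, and the freed dimers enter the nucleus and switch on cytokines, adhesion molecules and, as negative feedback, their own inhibitors. A slower non-canonical branch processes the Nfkb2 product p100 and releases dimers that contain RelB. Stromal cells of the gut are known sources of interleukin-6, interleukin-11, interleukin-33 and colony stimulating factors. Of these, interleukin-6 and interleukin-11 signal through the shared receptor chain gp130 and STAT3.

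The values are FPKM, fragments scaled to transcript length and to the mapped fragments of the library, so levels can be compared between genes. Summed over all genes, the libraries held between 513001 and 579004 FPKM. Read numbers are unknown. Low values gave an estimate of relative depth, 1.26 for the knockout with the control set to 1. Pdgfra and Pdpn, genes of the sort, were present throughout. Pdgfra stood between 152 and 227 FPKM and Pdpn between 91.7 and 304 FPKM over all 8 libraries, while Foxl1 was at most 0.289 FPKM in the GABA-taurine libraries, against 11.6 and 10.2 FPKM in the knockout and control libraries. Ly6c1 was at most 12.4 FPKM in the GABA-taurine libraries, against 89.6 and 141 FPKM in the knockout and control libraries, although the gate was set against Ly6C. Of 20 leukocyte markers, 12 were under 1 FPKM in every GABA-taurine library, with summed values from 14.2 to 23.9 FPKM, against 3 of 20 and summed values of 318 FPKM in the knockout and 269 FPKM in the control library. The 17 epithelial markers summed to between 2.78 and 8.62 FPKM in the GABA-taurine libraries, against 1098 FPKM in the knockout and 123 FPKM in the control library.

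These cells carried RNA for nearly the whole pathway. Of the 39 genes, 37 averaged 1 FPKM or more over the 6 GABA-taurine libraries, all but Il1b and Lcn2, and 35 over the 2 genotype libraries, all but Tnf, Csf2, Csf3 and Saa3. Their median level was 38.4 FPKM in the GABA-taurine libraries and 17.2 FPKM in the genotype libraries, against medians over all listed genes of 0.397 FPKM and 1.995 FPKM in the same sets. The 5 highest genes in the GABA-taurine libraries were Csf1 (mean 1056 FPKM), which encodes macrophage colony stimulating factor, Nfkbia (379 FPKM), Icam1 (359.9 FPKM), Il1rl1 (243 FPKM) and Rela (167 FPKM). In the genotype libraries they were Nfkbia (mean 545 FPKM), Icam1 (218 FPKM), Socs3 (217 FPKM), Il6st (119.6 FPKM) and Tnfrsf1a (109.9 FPKM). Csf1 ranked between 47 and 74 of the 24346 genes in the GABA-taurine libraries, against 961 in the knockout and 1012 in the control library.

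**Figure D1:**
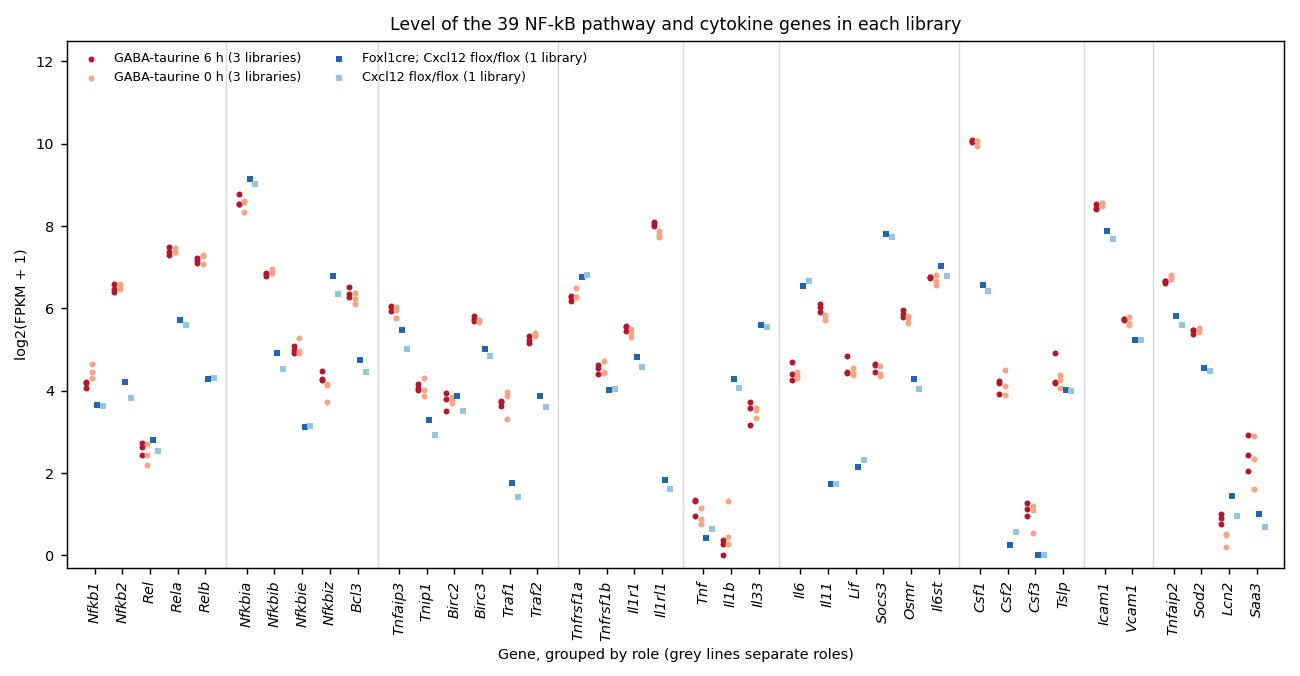
Level of each of the 39 genes, as log2(FPKM + 1), in the 8 libraries, with genes grouped by role on the horizontal axis. Points are single libraries, and the 3 libraries of a time lie close together for most genes, while Il1rl1, Il11, Csf1, Csf2, Socs3 and Il1b lie far apart between the GABA-taurine and the genotype libraries.

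Many of these genes are textbook NF-κB targets, and their promoters were read for the letters that the factor is known to bind. RefSeq promoter windows of 300 bases, 250 before and 50 after an annotated start (GRCm38.p6), matched 33 of the 39 genes, 41 windows in all; Nfkb1, Nfkbiz, Relb, Vcam1, Tslp and Csf3 were not matched. A full match to the κB consensus on either strand stood in the windows of 13 of the 33 genes (39.4%), against 9.55% of the 27025 genes of the whole table. The AP-1 letters TGANTCA stood in 7 of the 33 (21.2%, against 8.97% of all genes) and the STAT letters TTCNNNGAA in 7 (21.2%, against 9.55%). Among the 8 matched genes that were at least 4-fold higher in the GABA-taurine libraries 3 held a κB match (Nfkb2, Csf1 and Lif), and among the 4 matched genes at least 4-fold lower there 1 did (Il6). A match describes letters only, and a window without one says nothing of the factor. The 6 windows below with κB matches show an inhibitor, a subunit, a feedback protein and 3 cytokines on which the levels below turn, and those of Il11 and Socs3 are set beside them for a cytokine and a feedback gene without a κB match. Capitals mark κB matches, in Lif and Il6 also the AP-1 letters (at positions -228 to -222 and -249 to -243, counting the start site as 0), in Il11 only the AP-1 letters and in Socs3 only the STAT letters. The printed windows of Nfkb2 and Tnip1 also hold the STAT letters, left in lower case. In Nfkb2 and Tnip1 κB matches overlap each other, and in the windows printed no κB match overlaps an AP-1 match. For Nfkb2 the window is that of the first annotated start, and for Il11 that of the second.
Nfkbia (chr12:55492598-55492897, minus strand): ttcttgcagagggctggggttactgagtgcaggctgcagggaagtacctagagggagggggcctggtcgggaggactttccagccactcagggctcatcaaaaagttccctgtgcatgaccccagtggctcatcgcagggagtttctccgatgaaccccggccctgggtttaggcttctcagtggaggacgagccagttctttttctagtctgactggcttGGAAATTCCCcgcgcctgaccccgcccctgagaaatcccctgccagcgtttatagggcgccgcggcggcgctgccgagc
Nfkb2 (chr19:46304487-46304786, plus strand): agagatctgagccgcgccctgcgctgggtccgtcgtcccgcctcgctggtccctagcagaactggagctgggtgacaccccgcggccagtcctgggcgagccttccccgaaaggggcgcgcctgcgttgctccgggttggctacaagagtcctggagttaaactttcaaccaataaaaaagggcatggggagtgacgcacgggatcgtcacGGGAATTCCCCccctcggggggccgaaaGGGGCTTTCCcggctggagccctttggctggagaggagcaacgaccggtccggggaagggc
Tnip1 (chr11:54962891-54963190, minus strand): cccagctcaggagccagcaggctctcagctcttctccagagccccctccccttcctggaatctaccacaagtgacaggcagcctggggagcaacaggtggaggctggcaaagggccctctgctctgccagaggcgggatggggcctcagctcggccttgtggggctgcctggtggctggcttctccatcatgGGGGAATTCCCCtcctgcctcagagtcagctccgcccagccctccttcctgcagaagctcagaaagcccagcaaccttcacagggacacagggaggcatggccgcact
Csf1 (chr3:107760420-107760719, minus strand): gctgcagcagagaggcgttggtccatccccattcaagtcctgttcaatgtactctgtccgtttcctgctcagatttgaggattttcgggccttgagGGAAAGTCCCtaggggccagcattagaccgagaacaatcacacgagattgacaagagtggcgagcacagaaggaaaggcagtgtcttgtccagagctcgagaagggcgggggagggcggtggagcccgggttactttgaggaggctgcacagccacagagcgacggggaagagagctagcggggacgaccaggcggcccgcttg
Lif (chr11:4257318-4257617, plus strand): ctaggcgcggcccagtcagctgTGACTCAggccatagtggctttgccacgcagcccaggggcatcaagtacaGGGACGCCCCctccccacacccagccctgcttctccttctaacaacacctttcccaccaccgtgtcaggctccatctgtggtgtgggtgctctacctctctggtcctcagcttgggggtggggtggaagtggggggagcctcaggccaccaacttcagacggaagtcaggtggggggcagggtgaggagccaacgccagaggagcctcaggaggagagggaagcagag
Il6 (chr5:30012864-30013163, plus strand): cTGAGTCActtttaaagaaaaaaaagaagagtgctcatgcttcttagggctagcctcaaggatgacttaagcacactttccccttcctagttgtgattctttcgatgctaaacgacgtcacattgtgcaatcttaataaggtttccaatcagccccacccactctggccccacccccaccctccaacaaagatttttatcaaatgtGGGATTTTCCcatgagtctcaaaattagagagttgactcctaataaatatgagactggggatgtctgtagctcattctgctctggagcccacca
Il11 (chr7:4778092-4778391, minus strand): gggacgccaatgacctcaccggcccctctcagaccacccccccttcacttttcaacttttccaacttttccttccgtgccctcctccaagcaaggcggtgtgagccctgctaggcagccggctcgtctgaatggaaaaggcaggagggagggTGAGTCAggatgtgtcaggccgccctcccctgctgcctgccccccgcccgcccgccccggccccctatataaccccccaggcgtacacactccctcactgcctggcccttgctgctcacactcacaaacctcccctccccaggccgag
Socs3 (chr11:117969317-117969616, minus strand): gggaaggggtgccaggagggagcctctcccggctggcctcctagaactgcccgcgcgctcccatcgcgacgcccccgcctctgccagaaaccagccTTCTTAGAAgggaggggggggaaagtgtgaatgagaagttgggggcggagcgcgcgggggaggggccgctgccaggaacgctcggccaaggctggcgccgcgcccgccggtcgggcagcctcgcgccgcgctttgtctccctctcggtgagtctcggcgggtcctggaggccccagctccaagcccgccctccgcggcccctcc

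The largest differences among the 39 genes lay between the GABA-taurine and the genotype libraries. Il1rl1, Il11, Csf1, Csf2, Relb and Nfkb2 were far higher in the GABA-taurine libraries, and Socs3, Il1b, Nfkbiz, Il6 and Il33 far lower. The sets differ in mice, handling, treatment and possibly in normalisation, which cannot be told apart, so the differences are a description and no test was made across them. On the log2 scale of mean FPKM + 1, 14 of the 39 genes differed at least 4-fold, against 13.6% of all 15277 genes with at least 1 FPKM in a set. Of these 9 were higher and 5 lower in the GABA-taurine libraries, against 4.19% and 9.45% of all genes. All 6 GABA-taurine libraries lay beyond both genotype libraries for 35 of the 39, 28 above and 7 below, but so did 82.4% of all genes, 32.7% above and 49.7% below.

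The differences depended in part on the scaling. The median log2 difference was 0.79 over the 39 genes and -0.35 over all genes as deposited. It was 0.53 and -0.58 with the libraries scaled to the same upper quartile, and 0.36 and -0.76 with scaling to 10 reference genes. Relative to the median of all genes the 39 genes lay higher by 1.15, 1.11 and 1.12 under the 3 scalings. This shift was not particular to them. As deposited, the 10 reference genes had a median log2 difference of 0.97, above the 0.79 of the 39 genes. For 8 of the 10 all GABA-taurine libraries lay above both genotype libraries. Counted from the median of all genes, 15 of the 39 were at least 4-fold away, 12 above and 3 below, against 13.1% of all genes. Of the 14 genes, 11 stayed at least 4-fold apart under all 7 settings tried, the exceptions being Nfkbib, Traf1 and Lif. Under upper-quartile scaling 7 were higher and 5 lower, against 454 higher and 1853 lower of all 15277 genes (15.1% in all). Under reference-gene scaling 6 were higher and 5 lower, against 355 and 2225 of all genes (16.9% in all). The sign turned under a scaling for Birc2 (both scalings), Vcam1 and Tslp (reference genes only).

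**Figure D2:**
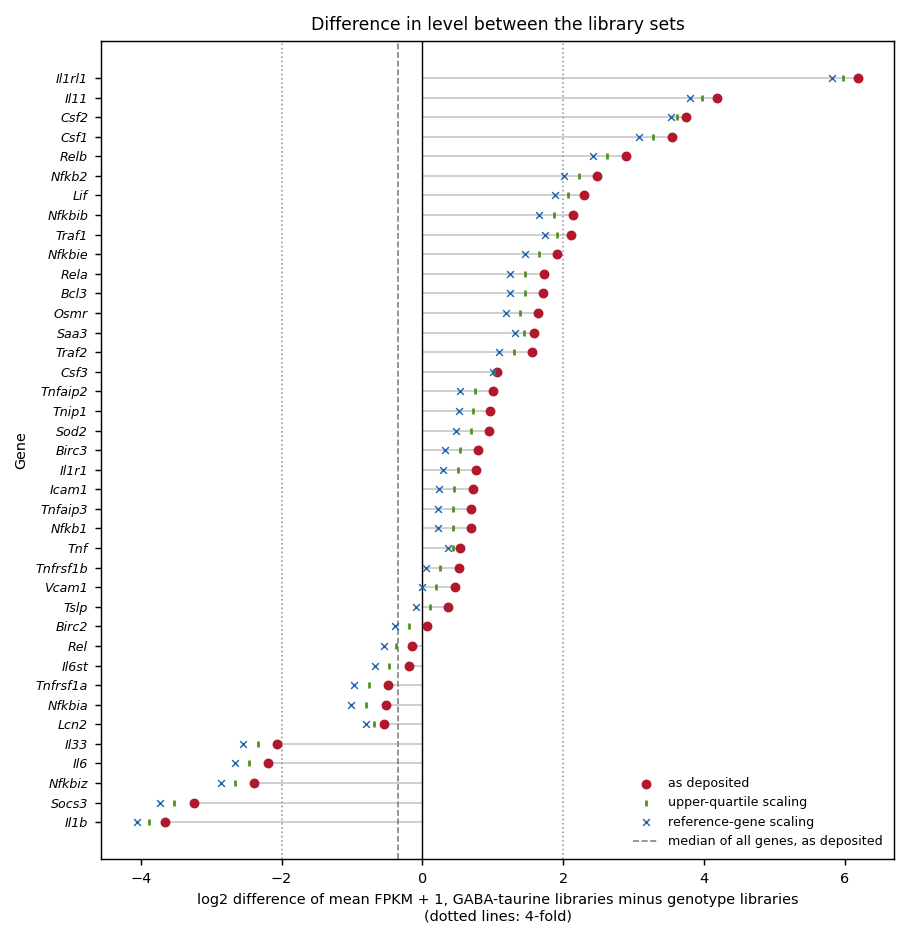
Log2 difference in level between the GABA-taurine libraries (mean of 6) and the genotype libraries (mean of 2) for each of the 39 genes, as deposited and under 2 other scalings, on the scale of mean FPKM + 1. Positive values are higher in the GABA-taurine libraries; Il1rl1 at 6.19 and Il11 at 4.18 lie at one end, Socs3 at -3.25 and Il1b at -3.66 at the other, and the dashed line marks the median of all genes at -0.35.

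Among the NF-κB subunits the genes of the non-canonical branch stood furthest apart. Relb, the subunit released by p100 processing, ran from 135 to 156 FPKM with a median of 146 FPKM in the GABA-taurine libraries, against 18.6 and 18.8 FPKM in the knockout and control libraries. Nfkb2, which encodes p100 and its product p52, ran from 82.6 to 95.9 FPKM with a median of 89.8 FPKM, against 17.5 and 13.2 FPKM in the knockout and control. The log2 differences were 2.90 and 2.48. Rela, which encodes the main activating subunit p65, ran from 156 to 178 FPKM with a median of 164 FPKM, against 51.9 and 47.4 FPKM in the knockout and control (log2 difference 1.73). Nfkb1, the source of p50, differed by 0.69 and Rel, a subunit best known from lymphocytes, by -0.14, and only for Rel did the libraries overlap. GENCODE M21 lists a bidirectional promoter long non-coding RNA over 531 exon bases of Nfkb2 and Psd over 299, both on the opposite strand, and these libraries do not mark strand. Psd was at most 3.47 FPKM, and no value of the non-coding RNA was used here.

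The IκB family split in both directions. Nfkbia, which encodes IκBα, ran from 323 to 438 FPKM with a median of 377 FPKM in the GABA-taurine libraries, against 568 and 522 FPKM in the knockout and control, a log2 difference of -0.52 that lies close to the median of all genes. Nfkbib (IκBβ) ran from 108 to 123 FPKM with a median of 115 FPKM, against 29.1 and 22.0 FPKM in the knockout and control (log2 difference 2.14). Nfkbie (IκBε) differed by 1.91 and Bcl3, a nuclear IκB protein that joins p50 and p52 dimers, by 1.72. Nfkbiz, another nuclear member (IκBζ) that is induced early and helps switch on Il6 and Lcn2, lay the other way. It ran from 12.2 to 21.3 FPKM with a median of 17.6 FPKM in the GABA-taurine libraries, against 109.9 and 80.3 FPKM in the knockout and control, so that its mean was 5.51-fold higher in the genotype libraries. Nfkbiz lies on chromosome 16 from 55811375 to 55838954 (GRCm38.p6).

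Of the feedback proteins and adaptors 1 of 6, Traf1, was at least 4-fold apart, against 13.6% of all genes. Traf1, an adaptor of tumour necrosis factor receptors and a known NF-κB target, ran from 8.87 to 14.5 FPKM with a median of 12.3 FPKM in the GABA-taurine libraries, against 2.40 and 1.69 FPKM in the knockout and control (log2 difference 2.11). Traf2, its widely expressed relative, differed by 1.55, Tnip1, a partner of A20, by 0.96, Birc3 (cIAP2) by 0.79 and Birc2 (cIAP1) by 0.07. Tnfaip3, which encodes the deubiquitinating enzyme A20, differed by 0.69. All of these apart from Birc2 had 6 GABA-taurine libraries above both genotype libraries. So did 32.7% of all genes and 8 of the 10 reference genes.

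The receptors held the largest difference of all. Il1rl1 encodes ST2, the receptor of interleukin-33, made as a membrane form and as a secreted form that captures the ligand. It ran from 210.5 to 271 FPKM with a median of 245 FPKM in the GABA-taurine libraries, against 2.58 and 2.07 FPKM in the knockout and control, a ratio of mean FPKM of 104 and a log2 difference of 6.19. Il1rl1 ranked between 350 and 494 of all genes in the GABA-taurine libraries, against 11094 in the knockout and 12279 in the control. RefSeq places its 2 annotated starts 10059 bases apart on chromosome 1, within a gene from 40404864 to 40465418, and a value per gene cannot tell the forms apart. Il1r1, the interleukin-1 receptor, differed by 0.76, Tnfrsf1b by 0.52 and Tnfrsf1a by -0.49. Tnfrsf1a, the widely expressed receptor of tumour necrosis factor, ran from 71.2 to 89.1 FPKM with a median of 76.4 FPKM in the GABA-taurine libraries, against 108 and 112 FPKM in the knockout and control.

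Of the ligands, Il33 and Il1b were lower in the GABA-taurine libraries. Il33 encodes a nuclear cytokine released from damaged cells. It ran from 7.96 to 12.3 FPKM with a median of 10.8 FPKM in the GABA-taurine libraries, against 47.3 and 46.0 FPKM in the knockout and control (log2 difference -2.07). The libraries with high Il1rl1 were those with the lower level of its ligand. Il1b, the interleukin-1β gene, ran from 0 to 1.51 FPKM with a median of 0.256 FPKM in the GABA-taurine libraries, against 18.5 and 15.8 FPKM in the knockout and control. Of 18 leukocyte markers measured, 15 were lower in every GABA-taurine library than in both genotype libraries, against 49.7% of all genes. Gata2 lay the other way (log2 difference 1.31), and Cd3e and S100a8 overlapped. Among the lower ones, Ptprc, which encodes CD45, was at most 0.216 FPKM in the GABA-taurine libraries. It stood at 6.85 and 4.82 FPKM in the knockout and control libraries. Lyz2 of macrophages and neutrophils was at most 7.15 FPKM in the GABA-taurine libraries, against 128 and 105 FPKM in the knockout and control. The highest of the 6 values of Il1b, in replicate 2 at 0 h, came from the library with the highest leukocyte sum (23.9 FPKM). Replicate 2 at 6 h had a sum close to it (22.6 FPKM) and the lowest Il1b value, 0 FPKM. The part of leukocytes in the level of Il1b was not tested, and fewer cells of a type and less RNA per cell cannot be told apart in such libraries. Tnf stayed between 0.699 and 1.54 FPKM in the GABA-taurine libraries, with 0.341 and 0.569 FPKM in the knockout and control.

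**Figure D3:**
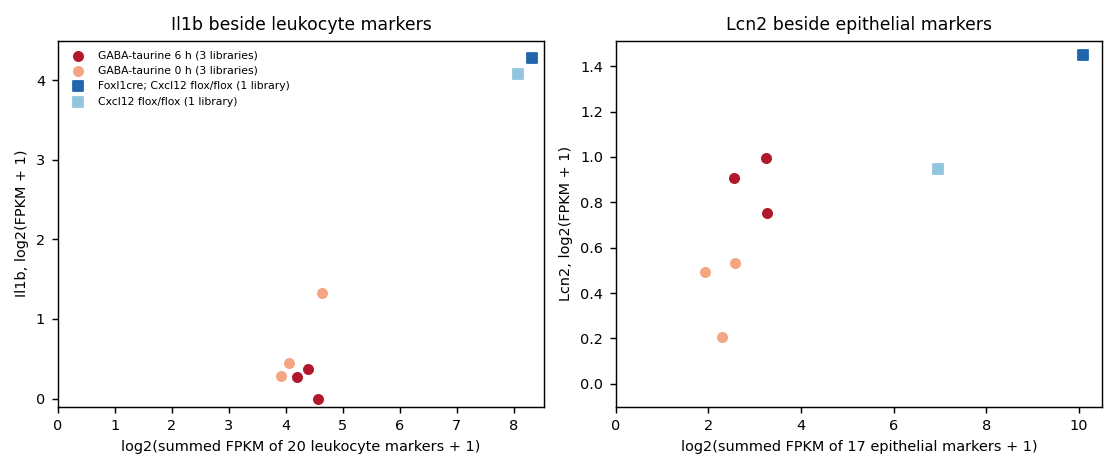
Left, Il1b against the summed level of 20 leukocyte markers, and right, Lcn2 against the summed level of 17 epithelial markers, each as log2(FPKM + 1) in 8 libraries. Both genotype libraries lie at the upper right for Il1b (18.5 FPKM in the knockout and 15.8 FPKM in the control, with marker sums of 318 and 269 FPKM). The knockout library holds the highest Lcn2 value (1.73 FPKM) and the highest epithelial sum (1098 FPKM). The control library, with a sum of 123 FPKM, has an Lcn2 value (0.930 FPKM) inside the range of the GABA-taurine libraries.

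The interleukin-6 family split by gene. Il11, a cytokine that fibroblasts make in response to TGF-β, ran from 51.4 to 68.3 FPKM with a median of 57.9 FPKM in the GABA-taurine libraries, against 2.33 and 2.31 FPKM in the knockout and control, a ratio of mean FPKM of 25.6. Lif, leukaemia inhibitory factor, ran from 19.9 to 27.9 FPKM with a median of 20.9 FPKM, against 3.45 and 3.95 FPKM in the knockout and control (log2 difference 2.30). Il6 itself lay the other way. It ran from 18.3 to 24.7 FPKM with a median of 19.8 FPKM in the GABA-taurine libraries, against 92.9 and 101 FPKM in the knockout and control, a mean 4.74-fold higher in the genotype libraries. Both Lif and Il6 hold κB and AP-1 letters in the windows printed above. Socs3, the STAT3-induced inhibitor of gp130 signalling whose window holds the STAT letters, ran from 19.6 to 24.2 FPKM with a median of 22.1 FPKM, against 223 and 212 FPKM in the knockout and control, a mean 9.92-fold higher in the genotype libraries. The shared chain Il6st (gp130) was close in both sets, from 94.3 to 112 FPKM in the GABA-taurine libraries, against 129 and 110.1 FPKM in the knockout and control. Osmr, the oncostatin M receptor chain that pairs with gp130, differed by 1.64.

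Colony stimulating factors were higher in the GABA-taurine libraries throughout. Csf1 ran from 981 to 1087 FPKM with a median of 1067 FPKM, against 94.0 and 84.1 FPKM in the knockout and control, a ratio of mean FPKM of 11.9. Csf2, which encodes granulocyte-macrophage colony stimulating factor, ran from 13.9 to 21.9 FPKM with a median of 16.8 FPKM, against 0.193 and 0.484 FPKM in the knockout and control. Csf3, granulocyte colony stimulating factor, was between 0.458 and 1.41 FPKM in the GABA-taurine libraries and listed at 0 in both genotype libraries. Tslp, a cytokine of epithelial and stromal cells that primes dendritic cells, was close in both sets, with a log2 difference of 0.36.

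Of the adhesion molecules, Icam1, a ligand of leukocyte β2 integrins, ran from 340.1 to 375 FPKM with a median of 363 FPKM in the GABA-taurine libraries, against 233 and 204 FPKM in the knockout and control (log2 difference 0.72). Vcam1, a ligand of α4 integrins, differed by 0.46. GENCODE M21 lists an antisense gene over 511 exon bases of Icam1, which the values cannot separate. The same holds for Nfkbib, Tnfaip2, Csf2, Vcam1 and Bcl3, each overlapped on the other strand over 314 exon bases or fewer. Among other targets Sod2, mitochondrial superoxide dismutase, differed by 0.95 and Tnfaip2 by 1.01. Saa3, a serum amyloid A gene made in tissues, was between 2.05 and 6.59 FPKM in the GABA-taurine libraries, against 0.998 and 0.625 FPKM in the knockout and control. Reads of Saa3 may be shared with close serum amyloid A relatives. Lcn2, lipocalin 2, stood at 1.73 FPKM in the knockout library, where the epithelial sum was also highest, and at most at 0.991 FPKM elsewhere. That value came from replicate 3 at 6 h, with an epithelial sum of 8.43 FPKM. The control library had 0.930 FPKM with a sum of 123 FPKM.

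Other genes of the pathway were read in the same way. Of 36 other genes of NF-κB signalling, all measured, 1 was at least 4-fold higher in the GABA-taurine libraries (Cd40, 93.6 FPKM on average, against 19.3 and 12.7 FPKM in the knockout and control) and 0 were at least 4-fold lower, with a median log2 difference of 0.19. The kinase genes Ikbkb, Chuk and Ikbkg, the core of the IκB kinase complex, differed by 0.30, 0.88 and 1.18. Of 30 other genes of gp130 and cytokine signalling, 29 were measured, 3 were at least 4-fold higher (Clcf1, Il17ra and Il13ra1) and 2 at least 4-fold lower (Csf1r and Il15). Of 25 further NF-κB targets, 22 were measured, 7 were at least 4-fold higher and 1 lower. Beside the counts of each of these lists stand the shares over all genes, 4.19% at least 4-fold higher and 9.45% lower. Cxcl5, a neutrophil chemokine, had a mean of 289 FPKM in the GABA-taurine libraries, against 1.86 and 2.2 FPKM in the knockout and control, and Ccl2, a monocyte chemokine, had 1901 FPKM, against 232 and 173 FPKM. Cxcl1 lay the other way, at 394 FPKM, against 950.0 and 1081 FPKM.

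Immediate early genes, which are induced by tissue dissociation as well as by growth signals, were read in a list of 13 with Hspa1a and Hspa1b. The median log2 difference of the list was -2.41. The heat shock genes Hspa1a (-0.28) and Hspa1b (-0.47) stayed close to the median of all genes, -0.35. The 13 genes summed to 2807 to 3407 FPKM in the GABA-taurine libraries, against 13417 FPKM in the knockout and 12094 FPKM in the control. Fos was between 54.5 and 74.1 FPKM in the GABA-taurine libraries, against 3923 and 3478 FPKM in the knockout and control. Nfkbiz, Il6 and Socs3 were high in the same libraries. Matrix genes also differed, with Col3a1 between 112 and 139 FPKM in the GABA-taurine libraries, against 4176 and 3613 FPKM. The part of either in the difference of the 39 genes was not tested.

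Between 6 h and 0 h of GABA and taurine the differences were small, with Il1rl1, Il11 and Nfkbiz somewhat higher and Nfkb1 and Tnfaip2 somewhat lower at 6 h. None of the 37 genes that averaged 1 FPKM or more passed the test of limma (0 of 37 at an adjusted p under 0.05, against 0.55% of the 10910 genes tested). At an unadjusted p under 0.05 there were 4 of 37, against 9.38% of all genes. The 3 libraries of one time all lay beyond those of the other for 5 of 37, against 15.3% of all genes. An exact two-sided permutation test with 3 against 3 libraries always gives its smallest p, 0.1, for such genes, so it adds nothing to the count. Log2 changes were positive for 23 of 37, against 49.5% of all genes, with a median of 0.05 against -0.0019 over all genes. That median was 0.013 without replicate 1 at 0 h and 0.014 without replicate 3 at 6 h. The 95% intervals of the change kept within 1.5-fold in either direction on the FPKM + 1 scale for 33 of the 37 genes, all but Nfkbiz, Tnf, Csf3 and Saa3, and within 2-fold for all 37.

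**Figure D4:**
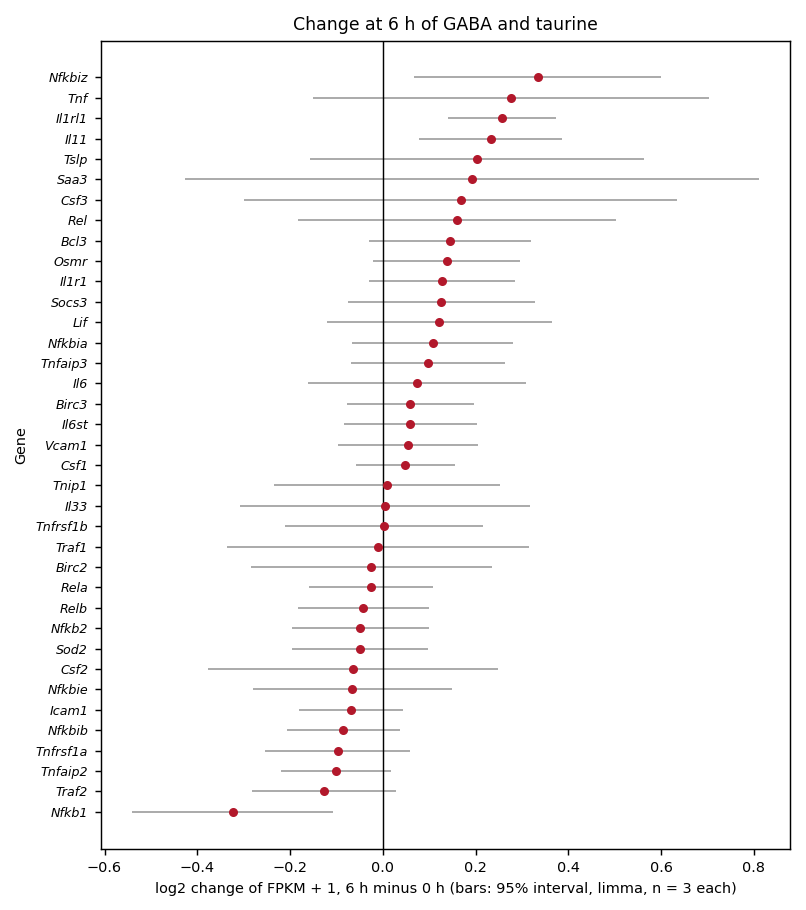
Log2 change of FPKM + 1 at 6 h against 0 h of GABA and taurine for the 37 genes tested, with 95% intervals from the limma fit (3 libraries each). All points lie between -0.32 (Nfkb1) and 0.33 (Nfkbiz), and none passed the adjusted threshold.

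Il1rl1 came closest to the threshold. It stood at 271, 264 and 257 FPKM at 6 h, against 210.5, 219.8 and 233 FPKM at 0 h, and every 6 h value was above every 0 h value. The log2 change was 0.26 (SE 0.05, adjusted p = 0.0618, limma). Without replicate 3 at 0 h the adjusted p was 0.0237, and over 13 alternative fits it ran from 0.0237 to 0.397, with 3 below the threshold.

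Within the interleukin-6 family and its signalling, Il11 and Osmr had the smallest limma p, with Nfkb1 and Nfkbiz ranked between them. Il11 stood at 68.3, 59.1 and 64.7 FPKM at 6 h, against 56.7, 51.4 and 54.9 FPKM at 0 h (log2 change 0.23, SE 0.07, limma adjusted p = 0.285). Its groups did not overlap. Osmr stood at 57.5, 61.8 and 54.3 FPKM at 6 h, against 48.8, 53.6 and 55.1 FPKM at 0 h (limma adjusted p = 0.606), with overlapping groups. The cytokines that separated the library sets were close at both times: Csf1 averaged 1073 ± 17.8 FPKM at 6 h and 1039 ± 49.6 FPKM at 0 h, Il6 21.0 ± 3.34 and 19.8 ± 1.14 FPKM, and Socs3 22.9 ± 1.66 and 20.9 ± 1.96 FPKM (SD, n = 3 each).

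Among the 37 genes tested, a gene of the IκB family and a subunit gene had the largest log2 changes in the 2 directions. Nfkbiz stood at 21.3, 18.3 and 18.3 FPKM at 6 h, against 12.2, 16.8 and 16.7 FPKM at 0 h (log2 change 0.33, SE 0.12, limma adjusted p = 0.392). Nfkb1 stood at 17.2, 15.7 and 17.5 FPKM at 6 h, against 24.0, 21.0 and 19.0 FPKM at 0 h (log2 change -0.32, SE 0.10, limma adjusted p = 0.286). For both genes the 2 groups did not overlap, Nfkbiz higher and Nfkb1 lower at 6 h. Nfkbia averaged 393 ± 38.8 FPKM at 6 h and 365 ± 36.7 FPKM at 0 h (SD, n = 3 each), with the highest value in replicate 3 at 6 h and the lowest in replicate 3 at 0 h. Bcl3 stood at 77.1, 80.8 and 90.8 FPKM at 6 h, against 82.3, 74.5 and 68.2 FPKM at 0 h (limma adjusted p = 0.625), with 2 of the 6 h values and 1 of the 0 h values inside the range of the other time. Tnfaip2, an NF-κB target linked to membrane protrusions, stood at 101, 97.8 and 101 FPKM at 6 h, against 104, 110.5 and 108 FPKM at 0 h (limma adjusted p = 0.618), every 6 h value lower. Traf2 stood at 34.8, 36.3 and 38.9 FPKM at 6 h, against 41.6, 38.9 and 39.9 FPKM at 0 h (limma adjusted p = 0.63), with the groups just overlapping.

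Below the filter were Il1b and Lcn2. Il1b stood at 0.297, 0 and 0.209 FPKM at 6 h, against 0.215, 1.51 and 0.358 FPKM at 0 h, with overlapping groups. Lcn2 stood at 0.685, 0.875 and 0.991 FPKM at 6 h, against 0.445, 0.408 and 0.155 FPKM at 0 h, every 6 h value above every 0 h value. Fitted with no filter its adjusted p was 0.442 (limma, unadjusted p = 0.00505), and it is named here after its values were seen. The epithelial marker Krt8 rose in the same libraries, at 2.06 ± 0.285 FPKM at 6 h and 0.396 ± 0.291 FPKM at 0 h (SD, n = 3 each, limma adjusted p = 0.0319), a call that was lost in 8 of 12 alternative fits (limma adjusted p from 0.0293 to 0.244). Without replicate 3 at 0 h its adjusted p was 0.0479, and without any other library it was 0.0802 or more. Of the 17 epithelial markers 2 were tested. The other, Lgals4, had overlapping groups (limma unadjusted p = 0.53), and some untested markers, such as Guca2a and Phgr1, had lower means at 6 h. Epithelial sums overlapped, from 4.90 to 8.62 FPKM at 6 h and from 2.78 to 4.99 FPKM at 0 h. The part of epithelial RNA in the values of Lcn2 was not tested.

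Among the other genes of the pathway 1 passed the test. Of 36 other NF-κB signalling genes, all tested, 0 passed limma's adjusted threshold, against 0.55% of all genes. At an unadjusted p under 0.05 there were 2, against 9.38% of all genes. These were Nfkbid (19.2 ± 1.26 FPKM at 6 h and 15.9 ± 1.06 FPKM at 0 h) and Cd40 (89.1 ± 6.31 and 98.0 ± 1.77 FPKM). Of 25 tested genes of gp130 and cytokine signalling, 0 passed and 8 had an unadjusted p under 0.05, against 9.38% of all genes, those with the smallest being Il15 (2.25 ± 0.274 FPKM at 6 h and 3.38 ± 0.338 FPKM at 0 h), Il13ra1 (48.8 ± 1.47 and 42.7 ± 1.94 FPKM) and Il11ra1, the receptor of interleukin-11 (47.2 ± 3.05 and 53.9 ± 1.65 FPKM). Of 20 tested NF-κB targets outside the 39 genes, 1 rose and 0 fell, against 0.55% of all genes called in either direction. An unadjusted p under 0.05 was found for 8, against 9.38% of all genes, all 8 of them higher at 6 h. After the gene that rose, the smallest p were those of the chemokine gene Cxcl10 (98.4 ± 6.44 FPKM at 6 h and 79.1 ± 3.93 FPKM at 0 h, limma adjusted p = 0.0686) and F3, which encodes tissue factor (491 ± 28.9 and 413 ± 18.2 FPKM, limma adjusted p = 0.0877). The gene that rose was Ch25h, which makes 25-hydroxycholesterol and is also induced by interferon, with 33.4 ± 3.01 FPKM at 6 h and 22.3 ± 1.49 FPKM at 0 h (log2 change 0.56, SE 0.09, limma adjusted p = 0.0275, n = 3 each). The call of Ch25h was lost in 6 of 13 alternative fits, with no filter (limma adjusted p = 0.244), without the intensity trend (0.291) and without replicate 1 or 2 at 6 h (0.0821 and 0.144) or at 0 h (0.0595 and 0.137). Of these 20 targets 15 had a positive change, against 49.5% of all genes, and their median log2 change was 0.15.

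The Cxcl12 comparison asks what loss of that chemokine from Foxl1-lineage cells leaves of the pathway. Cxcl12 itself was at 739.7 FPKM in the knockout and 1298 FPKM in the control library. Of 35 genes that averaged 1 FPKM or more in the 2 libraries, 0 differed at least 2-fold on the log2(FPKM + 1) scale, against 3.59% of 14949 genes. With 1 library per genotype nothing here has a replicate check and no test was possible. Counted by direction, 29 of 35 were higher in the knockout library, against 55.0% of all genes, and among those that averaged 10 FPKM or more 23 of 27 were, against 68.2%. The median log2 difference was 0.19, against 0.04 over all genes. With both libraries scaled to the same upper quartile 22 of 35 were higher, with medians of 0.10 over these genes and -0.04 over all genes. Epithelial and leukocyte sums were also higher in the knockout library, at 1098 and 318 FPKM, against 123 and 269 FPKM in the control. Single leukocyte markers were mixed. Of 17 measured, 13 were higher and 4 lower in the knockout, with Cd3d and Cd79a among the lower ones. The part of epithelial and leukocyte RNA in the differences was not tested. Endothelial markers lay the other way, with sums of 48.5 FPKM in the knockout and 74.98 FPKM in the control and 7 of 9 measured markers lower in the knockout.

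**Figure D5:**
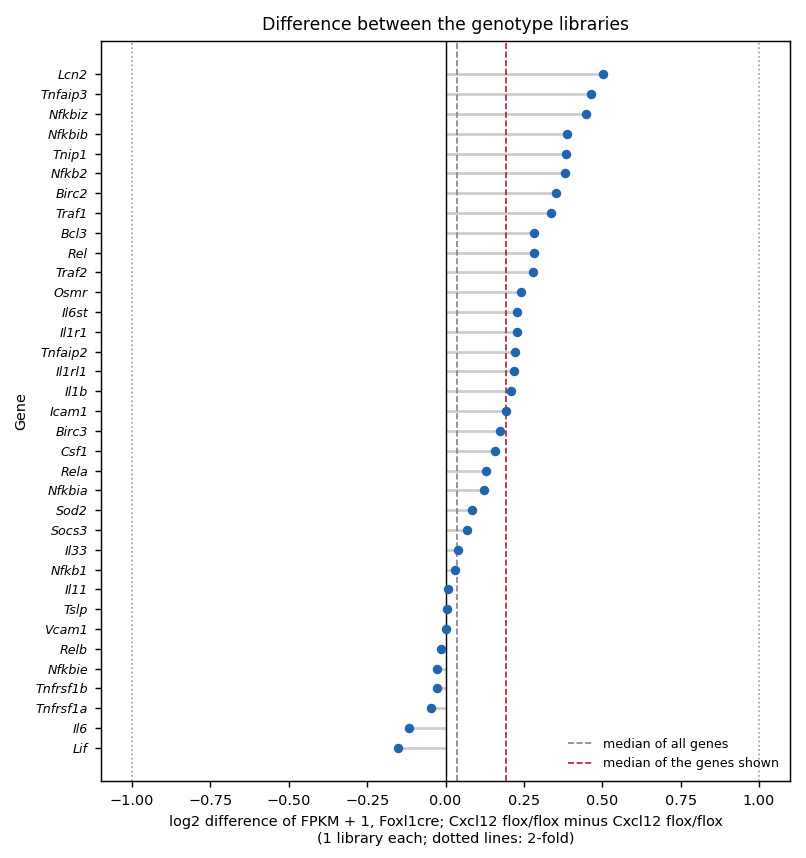
Log2 difference of FPKM + 1 between the knockout and the control library (1 library each) for the 35 genes that averaged 1 FPKM or more. The values run from -0.15 (Lif) to 0.50 (Lcn2), all inside the dotted 2-fold lines, and the median of the genes shown (0.19) lies above that of all genes (0.04).

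After Lcn2, the largest differences were those of feedback, IκB and subunit genes. Tnfaip3 stood at 43.7 FPKM in the knockout and 31.5 FPKM in the control (log2 difference 0.46), Nfkbiz at 109.9 and 80.3 FPKM (0.45), Nfkbib at 29.1 and 22.0 FPKM (0.39) and Tnip1 at 8.84 and 6.54 FPKM (0.38). All 6 feedback inhibitors and adaptors were higher in the knockout, Birc2 at 13.6 and 10.4 FPKM in the knockout and control (0.35) and Traf1 at 2.40 and 1.69 FPKM (0.34) among them. Higher in the knockout were also 55.0% of all genes, and 68.2% of those that averaged 10 FPKM or more. Nfkb2 stood at 17.5 FPKM in the knockout and 13.2 FPKM in the control (0.38). Lcn2 had the largest difference of the 35, 0.50, at 1.73 FPKM in the knockout and 0.930 FPKM in the control.

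Of the cytokines above the filter, Il1b and Csf1 had the largest differences, 0.21 and 0.16, both higher in the knockout, with Il1b at 18.5 and 15.8 FPKM in the knockout and control and Csf1 at 94.0 and 84.1 FPKM. Il6 stood at 92.9 FPKM in the knockout and 101 FPKM in the control, Lif at 3.45 and 3.95 FPKM, Il33 at 47.3 and 46.0 FPKM, Il11 at 2.33 and 2.31 FPKM and Tslp at 15.1 and 15.0 FPKM. Of these 7 only Il6 and Lif were lower in the knockout, by log2 differences of -0.12 and -0.15. Of the 4 genes below the filter, Tnf stood at 0.341 and 0.569 FPKM in the knockout and control, Csf2 at 0.193 and 0.484 FPKM, Saa3 at 0.998 and 0.625 FPKM, and Csf3 was listed at 0 in both.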

How the data were processed

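For each library the authors deposited FPKM values by gene symbol, per the file headers (24346 symbols). Per the labels' protocols, RNA was column-purified and SMART-Seq HT cDNA went into Nextera XT libraries, a chemistry that does not mark strand. Per the submitters' processing notes, the tools were Bowtie2 2.2.8, TopHat2 2.1.1, Cuffdiff 2.2.1 and SAMtools 0.1.18, on mm10. Their roles, the annotation and the scaling across libraries are unstated in those notes.

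The 39 genes and the other lists were chosen with earlier results of these data known. Values of log2(FPKM + 1) at 6 h and 0 h were fitted with limma 3.58.1 (R 4.3.3, with intensity trend) over the 10910 genes averaging 1 FPKM or more, with Benjamini-Hochberg adjustment over all of them (threshold 0.05), after the fit had been tested on simulated data. Log2 differences between the genotype libraries and between the library sets carry no test and were called at 2-fold and 4-fold. This scale understates the change of low genes. Relative depth is the most frequent ratio among genes under 0.5 FPKM. Promoter windows are RefSeq's (GRCm38.p6). Values by library are given for the 8 genes with the smallest p at 6 h, the 8 with the largest genotype difference, the 10 with the largest difference between sets and the 5 highest in each set. Further values, and the other genes named between the sets, were chosen after their values were seen.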

Additional observations from a re-analysis of the deposited data

How the results depend on the processing

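In the 6 h comparison the number of the 39 genes past limma's adjusted threshold was 0 as reported and 1, Il1rl1, with a filter of 5 FPKM (adjusted p = 0.0359) and with upper-quartile scaling (adjusted p = 0.0459), and it ran from 0 to 1 with 1 library left out (1 without replicate 3 at 0 h). The median log2 change of 0.05 was 0.0083 with the filter of 5 FPKM and ran from 0.013 to 0.069 with 1 library left out. Over the 13 alternatives the 8 genes with the smallest p kept their direction. The replicate numbers are only numbers in the labels: the correlation of same-numbered deviations was -0.044, 0.0126 and -0.0278. With the number as a replicate block 0 of 37 genes passed and the median change was 0.05, while over all genes 14 rose and 9 fell, in place of 26 and 34. That all-gene count was 0 with no filter and 0 without the intensity trend, and 41 rose and 44 fell with the filter of 5 FPKM; with 1 library left out it ran from 0 rising and 2 falling genes to 47 and 68 (without replicate 3 at 0 h). In the genotype comparison the count of 0 genes at 2-fold held under all 4 alternatives, and the median difference of 0.19 was 0.101 with upper-quartile scaling. Between the library sets the count of 14 genes at 4-fold ran from 11 to 17 over the alternatives, and the share of all genes from 9.42% with no filter to 34.8% with a pseudocount of 0.1, the setting that gave 17. The median of 0.79 was 0.977 with a pseudocount of 0.1, 0.527 with upper-quartile scaling, 0.358 with reference-gene scaling and 0.967 with the control library alone. The cause of these shifts was not tested. The depth in reads is unknown, which limits what can be said of genes under 1 FPKM, and a single library per genotype limits the Cxcl12 comparison to a description.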
